A study of Mus musculus with 10 samples.

Results

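EZH2 occupancy was compared between ex14D-Ezh2 and control mouse embryonic stem (ES) cells at the 13925 genes, of 24500 in the count files, that carried at least 1 EZH2 ChIP-seq read in any of 4 libraries. Of these genes, 13401 had enough reads for edgeR's filter on low counts and were tested. The remaining 10575 genes of the files are listed at 0 in all 4 libraries. Both genotypes are E14 ES cells with the strain label 12910la. Control cells are wild-type, and the ex14D cells carry an insertion or deletion made with CRISPR-Cas9 in exon 14 of Ezh2, which the labels call a knock-out of exon 14 and which, by the study's account of the design, leaves the splice form without that exon as the functional one. There were 2 libraries for each genotype. The deposited names give the 2 ex14D libraries different tags whose meaning is not given, so they may or may not come from separate lines, and p-values measure the spread between these libraries, which may be technical. ChIP-seq counts at a gene do not measure its expression, so the identity of the cells could not be checked from pluripotency markers.

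EZH2 is the methyltransferase of Polycomb repressive complex 2 (PRC2), which also holds EED, SUZ12 and the histone-binding proteins RBBP4 and RBBP7, and which methylates lysine 27 of histone H3. In ES cells the complex sits at CpG-rich promoters of silent developmental regulators, with its product H3K27me3, and keeps lineage genes repressed until differentiation. Exon 14 encodes part of the CXC domain, a cysteine-rich stretch just before the catalytic SET domain.

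Control replicates 1 and 2 had 13861477 and 18403892 reads on genes, and ex14D replicates 1 and 2 had 13628137 and 16426765. Levels are given as CPM, the count of a gene scaled to the reads of its library, after TMM normalization, which sets libraries to a common scale from the bulk of genes. This scaling removes a change shared by the bulk of genes, so log2 fold changes and percents of control are relative and not absolute. The study's Western blot found less EZH2 protein in ex14D cells than in control cells. Counts grow with gene length, so genotypes are compared within a gene and genes only per kilobase. A total of 13 features, mostly repeat-like small RNA genes such as Mir684-1, each took more than 1% of the reads. Zeros were concentrated on some chromosomes, with 1131 of 1140 genes at 0 on chromosome 10 and 1746 of 1830 on chromosome 11, and 9974 of the 10575 genes at 0 had reads in the H3K27me3 or input libraries. The HoxB and HoxC clusters, Eed, Suz12, Ezh1 and Runx2 are among the genes at 0, and nothing can be said of EZH2 there.

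EZH2 counts fell at 1056 genes and rose at 7 in ex14D cells (edgeR's quasi-likelihood F test, p-values adjusted by Benjamini-Hochberg, threshold 0.05), which was 7.88% and 0.0522% of the genes tested. The median log2 fold change, ex14D minus control, was 0.02 over all genes tested and −0.72 over the lower genes. A fall to 50% or less of control, a log2 fold change of at most −1, was measured at 297 genes, and 282 of them passed the test. The number of calls depended on the libraries kept. With either control library left out, the spread within a genotype came from the ex14D libraries alone. Without control replicate 1 no gene was called (smallest adjusted p = 0.155 in edgeR's test, with 1372 genes lower and 186 higher at an unadjusted p under 0.05), and without control replicate 2 none was either (smallest adjusted p = 0.179, with 1300 lower and 198 higher at an unadjusted p under 0.05). All 1056 genes kept a value under 0 in both of those fits. That adds no support, since both ex14D libraries lay under both control libraries at all 1056 of them. Both ex14D libraries lay under both control libraries at 23% of all genes tested, called or not, and the genes below whose genotypes do not overlap are to be read against that share. Counts of called genes in the lists below are to be read against the 7.88% of all genes tested.

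**Figure D1:**
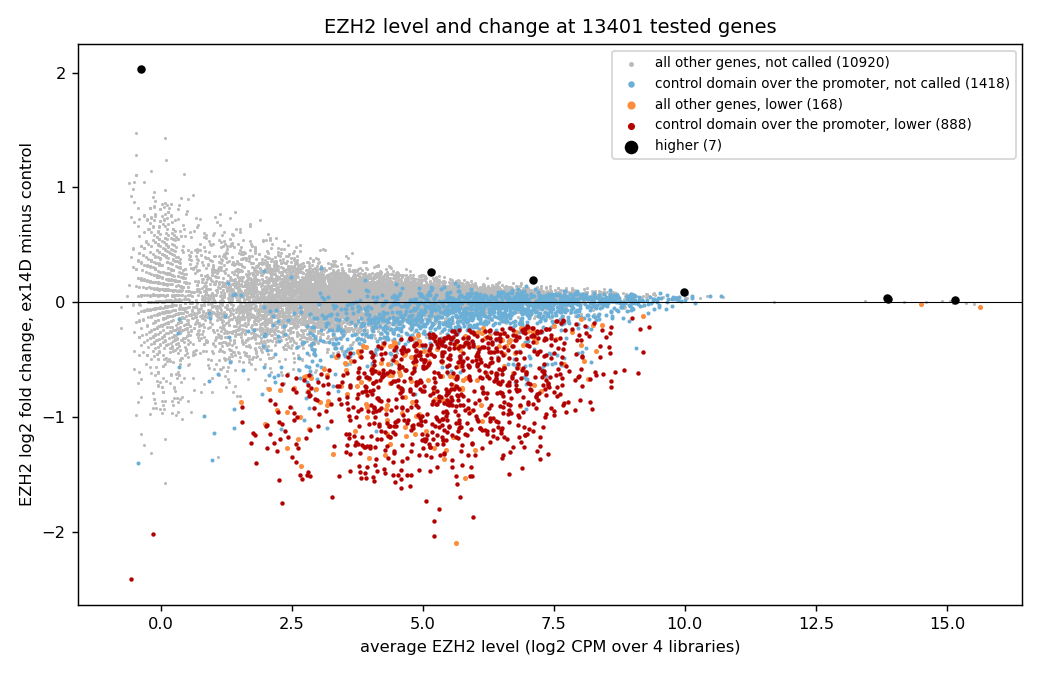
Log2 fold change in EZH2 (ex14D minus control) against the average EZH2 level (log2 CPM over 4 libraries), 1 point for each of 13401 genes tested, coloured by call and by whether both control libraries had an EZH2 domain over the promoter. The 1056 lower genes hang below a band of genes around 0, and 888 of them have such a domain.

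The deposited EZH2 domains are stretches that the hiddenDomains program called enriched in each library. Most genes that fell had a domain over the promoter in both control libraries. Counts cover the whole gene, so they do not place a fall on the promoter. Both control libraries had a domain over the promoter, taken as 1000 bp around the 5′ most start, at 2306 tested genes. Of these, 888 fell, none rose, and 83.1% had a value under 0, with a median of −0.22. The control domains and the fold change share the control counts, which can pull these values down. Chosen instead by a domain over the promoter in both ex14D libraries, 742 of 1429 genes fell and none rose (median −0.36). Among the 11055 placed genes without a domain over the promoter in both control libraries the median was 0.04, and 165 fell. In 160 of those 165 genes a domain lay elsewhere on the gene. The remaining 5 had no domain in any library, and they are named here after their values were seen: D14Ertd670e, Lin7b, Tmem260 and the high-count features Mir684-1 and Mir692-2, with log2 fold changes of −0.77, −0.76, −0.22, −0.04 and −0.02.

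Among genes whose average log2 CPM was 3 or more, the largest fall was at Slc32a1 (chr2:158607260-158615747, GRCm38), which encodes the vesicular transporter of GABA and glycine. It belonged to the 160 lower genes with a domain elsewhere on the gene and none over the promoter in both control libraries. Its EZH2 level was 81.6 and 77.5 CPM in the control libraries against 22.4 and 15.05 CPM in ex14D, a log2 fold change of −2.10 (SE 0.15, adjusted p = 0.00325 in edgeR's test). Gas1, a growth-arrest protein and Hedgehog co-receptor, had 55.96 and 62.1 CPM in control and 19.1 and 10.3 CPM in ex14D (log2 fold change −2.04, SE 0.21). The homeobox gene Gbx2, a regulator of the midbrain-hindbrain boundary, went from 56.8 and 65.3 CPM to 21.01 and 14.5 CPM, a log2 fold change of −1.80. At each of these genes ex14D replicate 2 was the lowest library. The same order of libraries held at the Wnt receptor gene Fzd8, with 49.5 and 51.9 CPM in control and 20.8 and 10.4 CPM in ex14D, and at the BMP-family ligand gene Gdf7, with 77.5 and 82.4 CPM against 31.0 and 18.8 CPM. Their log2 fold changes were −1.73 and −1.70. The other 7 of the 12 largest falls were Gm996, 9130024F11Rik, Ier5l, the homeobox gene Gsc2, Lrrc10b, the epidermal envelope gene Lor and 9230102O04Rik, with log2 fold changes from −1.91 to −1.56.

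Promoter sequences of genes with large falls and with falls near the median of the lower genes are shown here because PRC2 in ES cells is found at CpG-rich DNA. Each is the 250 bases before the RefSeq start (GRCm38.p6), read 5′ to 3′ on the gene's own strand, with every CG in capitals. Gas1 lies at chr13:60177536-60177785 (reverse strand), Gbx2 at chr1:89931177-89931426 (reverse strand) and Klf4 at chr4:55532476-55532725 (reverse strand). Hoxa11 at chr6:52245811-52246060 and Hoxa13 at chr6:52260881-52261130, both on the reverse strand, had smaller falls (−0.66 and −0.78). These were near the median of −0.72 over the lower genes.
Gas1: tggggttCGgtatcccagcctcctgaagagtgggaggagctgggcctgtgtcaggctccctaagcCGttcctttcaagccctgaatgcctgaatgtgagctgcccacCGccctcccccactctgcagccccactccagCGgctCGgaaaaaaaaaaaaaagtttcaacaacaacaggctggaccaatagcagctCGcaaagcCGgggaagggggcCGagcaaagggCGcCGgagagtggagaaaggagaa
Gbx2: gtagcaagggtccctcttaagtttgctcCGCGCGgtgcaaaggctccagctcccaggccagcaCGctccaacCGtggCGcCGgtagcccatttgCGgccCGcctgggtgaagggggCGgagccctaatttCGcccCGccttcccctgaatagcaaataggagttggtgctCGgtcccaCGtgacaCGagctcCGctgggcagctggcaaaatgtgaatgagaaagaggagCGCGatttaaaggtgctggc
Klf4: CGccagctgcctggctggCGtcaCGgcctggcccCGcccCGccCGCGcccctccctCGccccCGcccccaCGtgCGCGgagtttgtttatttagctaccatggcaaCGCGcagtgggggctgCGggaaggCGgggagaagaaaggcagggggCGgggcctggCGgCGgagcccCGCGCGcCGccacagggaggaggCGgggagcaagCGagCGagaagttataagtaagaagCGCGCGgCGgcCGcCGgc
Hoxa11: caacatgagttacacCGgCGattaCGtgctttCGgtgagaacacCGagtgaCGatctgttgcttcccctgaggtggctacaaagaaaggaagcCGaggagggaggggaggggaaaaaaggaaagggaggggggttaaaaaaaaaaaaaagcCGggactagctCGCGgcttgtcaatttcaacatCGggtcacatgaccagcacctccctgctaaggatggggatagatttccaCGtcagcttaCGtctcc
Hoxa13: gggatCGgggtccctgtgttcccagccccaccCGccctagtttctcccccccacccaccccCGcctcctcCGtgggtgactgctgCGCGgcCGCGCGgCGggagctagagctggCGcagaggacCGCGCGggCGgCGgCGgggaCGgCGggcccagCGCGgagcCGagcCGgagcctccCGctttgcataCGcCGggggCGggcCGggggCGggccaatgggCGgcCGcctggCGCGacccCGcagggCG
These stretches held 10 CG in Gas1, 18 in Gbx2, 32 in Klf4, 13 in Hoxa11 and 35 in Hoxa13, against a median of 6 in the 32851 RefSeq promoters of the same length. All 5 exceeded that median, and the CG numbers of the genes with large falls and of the 2 Hox genes overlapped. An EZH2 domain covered each stretch in all 4 libraries, except that Gas1 had none in ex14D replicate 2.

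Hox genes, which set position along the body axis and are classic PRC2 targets, held high EZH2. They fell about as much as all developmental transcription factor genes tested, Hox genes included, whose median was −0.65. The HoxA and HoxD lists each had a median of 100% of the gene under a control domain. They fell less than the 306 genes at least 80% under one (median −1.03), and than the 96 of those with a control H3K27me3 log2 ratio over input of 3 to 4 (−0.79). Of 11 HoxA genes in the files, 8 were tested and 7 fell, with a median log2 fold change of −0.62. Of 9 HoxD genes, 8 were tested and 6 fell, with a median of −0.64. All 16 had lower values in ex14D, and the 3 not called were Hoxa2, Hoxd8 and Hoxd9 (adjusted p = 0.0551, 0.0636 and 0.0587 in edgeR's test). The HoxA median was −0.38 without ex14D replicate 2 and −0.87 without ex14D replicate 1.

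Hoxa10 had 301 and 310 CPM in control and 250 and 191 CPM in ex14D, a log2 fold change of −0.47 (SE 0.11, adjusted p = 0.0356 in edgeR's test), so that 72.0% of its level was kept. Hoxd9 had 161 and 151 CPM in control and 126 and 89.0 CPM in ex14D, a log2 fold change of −0.54. At both genes the 2 ex14D libraries stood further apart than the 2 control libraries. The larger falls in the clusters were at Hoxd1 (47.2 and 44.9 CPM against 26.2 and 14.6 CPM, −1.20), Hoxd12 (55.9 and 58.1 CPM against 32.6 and 29.1 CPM, −0.89), Hoxd3 (378 and 374 CPM against 249 and 164 CPM, −0.87) and Hoxa13 (116 and 108 CPM against 79.5 and 51.4 CPM, −0.78). Hoxa11 fell from 99.1 and 88.1 CPM to 65.4 and 53.3 CPM (−0.66). Evx1 and Evx2, homeobox genes beside the HoxA and HoxD clusters, had log2 fold changes of −1.05 and −0.59, and Cdx2, a caudal homeobox gene that activates Hox genes, fell from 237 and 224 CPM to 157 and 111 CPM (−0.78). Without ex14D replicate 2 the values were −0.31 at Hoxd9, −0.49 at Hoxa13 and −0.38 at Evx2, and the value at Hoxa10 was −0.70 without ex14D replicate 1. Hoxa11 overlaps an antisense gene, and the counting gives reads on overlapping genes to neither.

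Most other homeobox families had lower medians too. All 6 tested Dlx and Msx genes, which pattern limbs, face and forebrain, were called lower (median log2 fold change −0.82), as were all 3 tested Iroquois genes (−1.15), 7 of 9 Nkx genes (−0.92), 8 of 10 LIM homeobox genes (−0.62), 6 of 7 Pax genes (−0.44) and 24 of 31 further homeobox genes such as Barhl1 (−0.65). Each of these shares stood above the 7.88% of all tested genes. Eya1, Eya2, Eya3 and Six5, a homeobox gene and genes of its partner family, had 1 of 4 called lower (Six5), 2 of 4 with values under 0 and a median of −0.01. Their median length was 114 kb, with a median of 1.02% of the gene under a domain. The 2 of them with a control domain over the promoter had a median of −0.77. Without ex14D replicate 2 the LIM and Iroquois medians were −0.41 and −0.76. Irx4, a cardiac ventricle factor, had 135 and 135 CPM in control and 73.1 and 45.5 CPM in ex14D (−1.20). Pax6, needed for eye and forebrain, had 199 and 224 CPM in control and 115 and 63.5 CPM in ex14D, a log2 fold change of −1.25 (SE 0.23, adjusted p = 0.016 in edgeR's test). Pax7, a neural crest and muscle factor whose gene is 96.5 kb long, had 663 and 693 CPM in control against 554 and 448 CPM (−0.44). Nkx1-1 had 318 and 284 CPM in control and 253 and 194 CPM in ex14D and was not called (−0.43, adjusted p = 0.0685 in edgeR's test).

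Lineage bHLH genes, a list that holds neuronal factors and also factors of muscle and mesoderm such as Myod1 and Twist1, fell at 15 of 21 tested members (median −0.86) and the Hes, Hey and Id genes, which oppose bHLH factors and carry Notch and BMP signals, at 6 of 10 (median −1.04). Hes5 had 37.7 and 38.2 CPM in control and 17.9 and 9.32 CPM in ex14D (−1.51). Nhlh2, a neuronal bHLH factor, had 96.9 and 85.8 CPM in control and 46.6 and 26.4 CPM in ex14D (−1.34). Of the 4 libraries, ex14D replicate 2 had the lowest level at both genes. Of the Sox genes other than Sox2, 8 of 11 fell (median −0.67), led by Sox18 at −1.30, Sox4 at −1.24 and the endoderm factor Sox17 at −1.08. Forkhead genes fell at 7 of 24 (median −0.54), GATA genes at 2 of 4 (median −0.69) and nuclear receptor genes at 6 of 23 (median −0.09). Without ex14D replicate 2 the Forkhead and GATA medians were −0.28 and −0.45 and the value at Sox4 was −0.81, and without ex14D replicate 1 the Forkhead median was −0.85. Foxp1, the forkhead gene with the highest EZH2 count, is 597 kb long and had 500 and 504 CPM in control and 513 and 517 CPM in ex14D (0.04).

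T-box genes, which include the regulators of mesoderm, fell at 8 of 13 tested members, with a median of −0.68. T (Brachyury) had 50.04 and 48.8 CPM in control and 32.1 and 21.7 CPM in ex14D, a log2 fold change of −0.89 (SE 0.15, adjusted p = 0.0125 in edgeR's test). Eomes, required for mesoderm and endoderm, had 99.9 and 96.8 CPM against 59.7 and 41.5 CPM (−0.96). The homeobox gene Mixl1 of the primitive streak had 21.5 and 17.99 CPM against 8.94 and 6.99 CPM (−1.31). These 3 genes kept 54.4%, 51.5% and 40.3% of the control level.

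Over all developmental transcription factor lists together, 129 of 207 tested genes fell and none rose, with a median of −0.65. For signalling genes it was 66 of 144, with a median of −0.27. Wnt ligands fell at 8 of 10 tested genes and Frizzled receptors, to which they bind, at 4 of 6 (medians −0.73 and −1.48). Fzd1 had 86.2 and 88.8 CPM in control and 37.9 and 23.9 CPM in ex14D (−1.52). Fzd10 had 22.7 and 25.5 CPM against 9.45 and 7.46 CPM (−1.53). At both receptors the control libraries were more than 2-fold above each ex14D library. The ligand gene Wnt10a went from 236 and 242 CPM to 149 and 94.2 CPM (−0.98). Secreted Wnt antagonists fell at 2 of 8, namely Sfrp1 (−0.66) and Frzb (−0.52).

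Hedgehog genes fell at 4 of 9. The ligand gene Shh had 399 and 390 CPM in control and 254 and 161 CPM in ex14D, a log2 fold change of −0.93 (SE 0.17, adjusted p = 0.018 in edgeR's test). Ihh, also a ligand, had 192 and 175 CPM against 125 and 81.5 CPM (−0.83), and the co-receptor gene Gas1 is described above. The receptor gene Ptch1, named to complete the count, was also called (−0.38). Of BMP and TGF-beta ligands 8 of 21 fell (median −0.41), among them Gdf7, Inhbb (−1.31) and Bmp4 (52.2 and 49.4 CPM against 28.1 and 16.8 CPM, −1.20). Bmp6, whose gene is 155 kb long, had 278 and 258 CPM in control and 240 and 217 CPM in ex14D and was not called (−0.23, adjusted p = 0.0557 in edgeR's test). Of FGF ligands 7 of 11 fell (median −0.31), from Fgf15 at −1.08 to Fgf12 at −0.12, and of Notch pathway genes 6 of 13 (median −0.23), led by Lfng at −1.04. The FGF median was −0.14 without control replicate 2, the Notch median −0.14 without ex14D replicate 2 and −0.35 without ex14D replicate 1, and the value at Ihh −0.55 without ex14D replicate 2. The call at Fgf12 was kept in 3 of the 7 other settings that used all 4 libraries.

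Genes of neuronal function fell at 47 of 176 tested members (median −0.10). Potassium channel genes fell at 19 of 56 (median −0.19), and monoamine, acetylcholine and peptide receptor genes at 16 of 47 (median −0.20, and −0.31 without ex14D replicate 1). Among signals to growing neurons, counted with the signalling genes above, neurotrophic factors and their receptors fell at 8 of 11 (median −0.52), ephrins and Eph receptors at 5 of 15 (median −0.16, and −0.08 without control replicate 2) and semaphorins and plexins at 8 of 25 (median −0.06). Gad1, which makes GABA, had 138 and 137 CPM in control and 89.1 and 73.5 CPM in ex14D (−0.76). The dopamine receptor gene Drd4 had 49.3 and 51.9 CPM against 27.2 and 13.2 CPM (−1.35, and −0.90 without ex14D replicate 2). GABA and glycine receptor genes fell at none of 15 (median −0.04), while 2 of 17 glutamate receptor genes did, Grm2 (−0.73) and Grin2d (−0.71). Both counts are near the 7.88% of all tested genes. Of the GABA and glycine receptor genes, 11 of 15 had a control domain over the promoter. Their median length was 91.6 kb, with a median of 1.04% of the gene under a domain. Gabrg3, at 671 kb, had 393 and 401 CPM in control and 398 and 406 CPM in ex14D. The neuronal RNA-binding gene Elavl3 had 51.8 and 50.5 CPM against 44.1 and 41.9 CPM (−0.25, adjusted p = 0.046 in edgeR's test), and the adaptor gene Shc3 had 159 and 159 CPM against 155 and 155 CPM (−0.04). The call at Elavl3 was kept in 3 of the 7 other settings that used all 4 libraries.

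Among pluripotency genes 3 of 13 tested members fell. Klf4 had 29.3 and 26.6 CPM in control and 12.5 and 8.18 CPM in ex14D, a log2 fold change of −1.45 (SE 0.16, adjusted p = 0.00398 in edgeR's test). Prdm14 (40.6 and 35.5 CPM against 21.7 and 19.2 CPM, −0.90) and Nr5a2 (−0.31) were the others. Nanog, Sall4 and Tfcp2l1, named after their values were seen, had log2 fold changes of 0.22, 0.09 and 0.06 and were not called, and Pou5f1, Sox2 and Esrrb are listed at 0. Of 6 PRC2 genes tested, only Phf19, an accessory subunit, was called (41.3 and 44.5 CPM against 31.6 and 30.4 CPM, −0.47). Ezh2 itself had 60.8 and 62.6 CPM in control and 65.7 and 62.5 CPM in ex14D (0.05), with overlapping genotypes, and none of the 9 PRC1 genes tested was called. Over all tested genes 7.88% were called lower, and 6 PRC2 and 9 PRC1 genes are too few to set against that share. Cdkn1c, an imprinted inhibitor of cyclin-dependent kinases, fell from 112 and 114 CPM to 66.9 and 43.7 CPM (−1.04), and Ccnd1, which encodes cyclin D1, from 31.7 and 27.8 CPM to 14.98 and 13.9 CPM (−1.04). Imprinted genes fell at 6 of 26. Fgf4, Utf1 and Nphs1 had values of −0.44, −0.32 and 0.03 and were not called, and without control replicate 2 the values at Fgf4 and Utf1 were −0.05 and −0.07.

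Genes for functions of every cell had a median of 0.05, with 3 of 235 called lower. No call was made among 47 ribosomal protein, 52 respiratory chain, 25 proteasome and 44 splicing factor genes. Receptor, keratin, defensin and cytokine genes that are silent in ES cells outside the usual Polycomb set had a median of 0.06, with 2 of 830 lower, both chemokine genes (Cxcl12 at −0.86 and Cxcl14 at −0.82), and 1 higher. Olfactory receptor genes fell at none of 518 and vomeronasal receptor genes at none of 200. For example, the vomeronasal gene Vmn2r47 had 73.2 and 67.3 CPM in control and 67.7 and 74.0 CPM in ex14D (0.02).

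**Figure D2:**
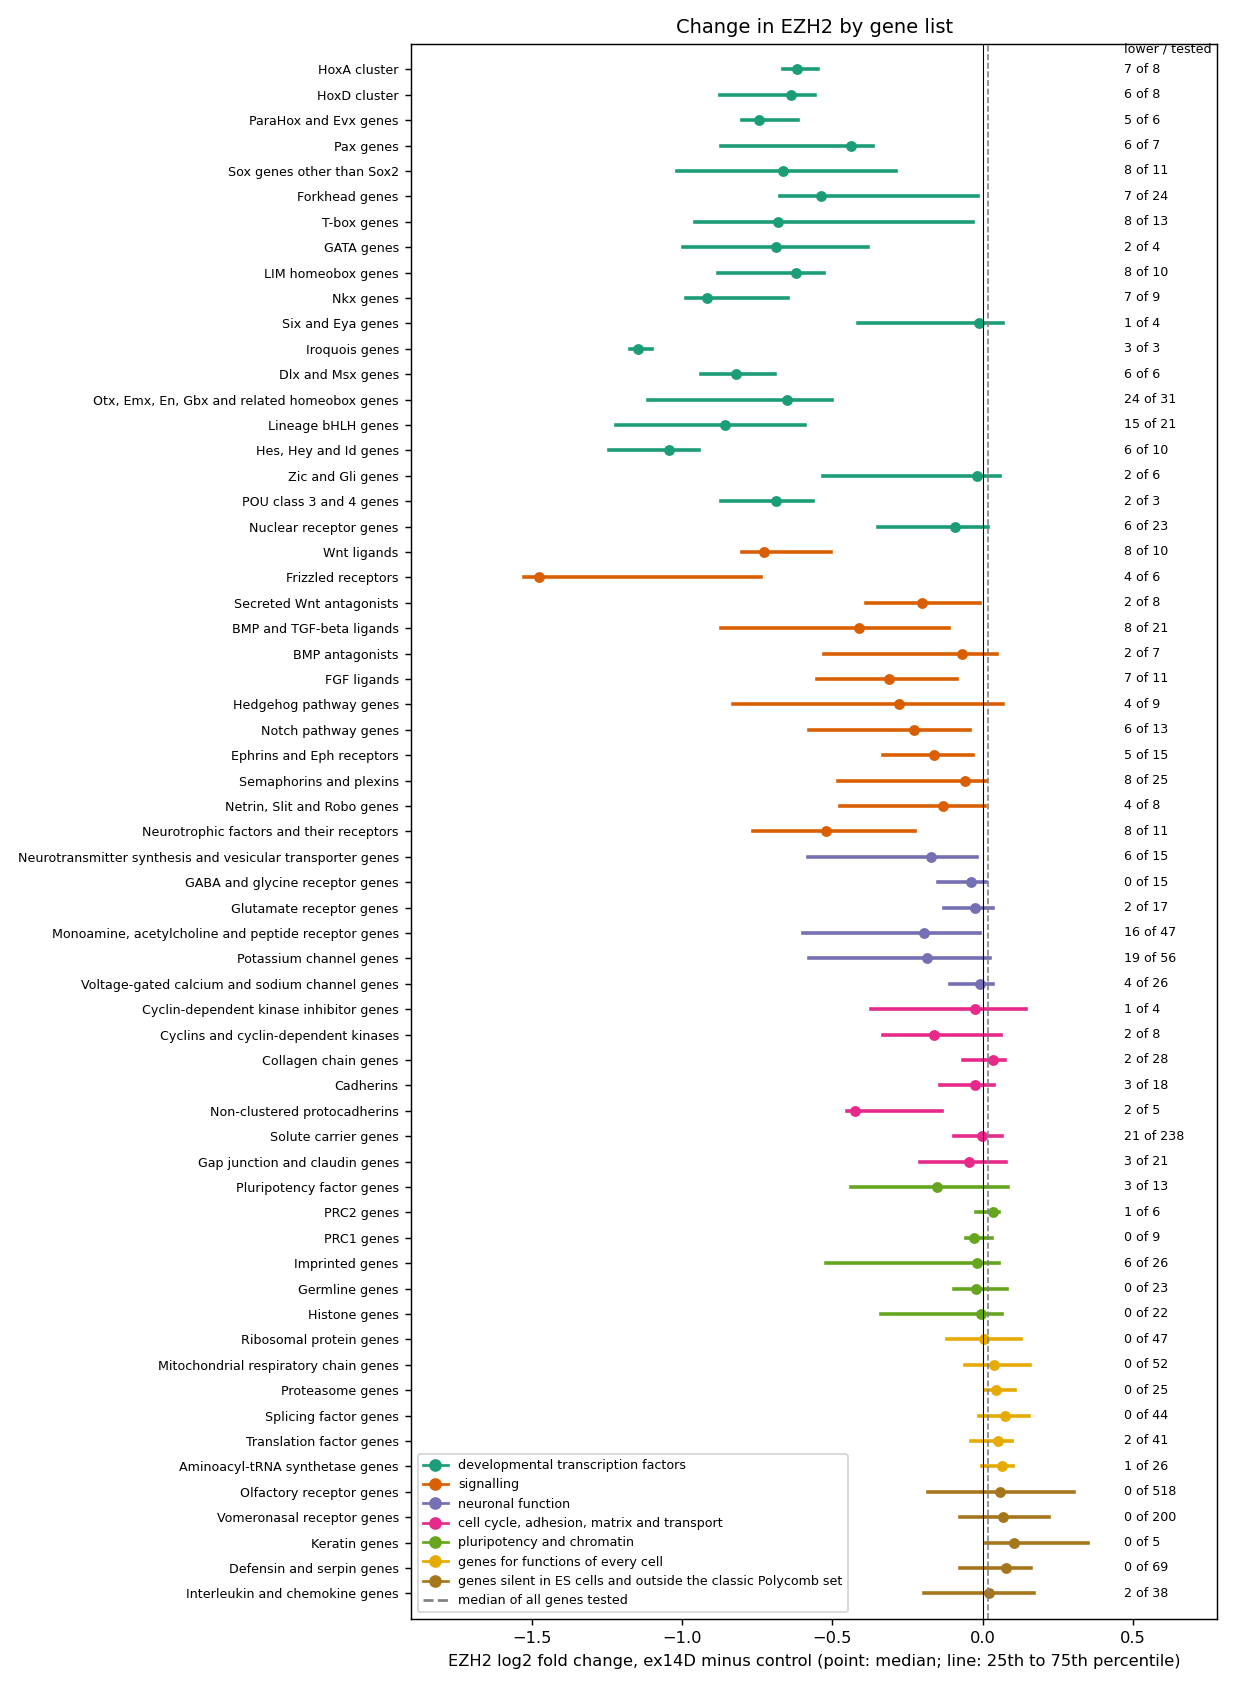
Median EZH2 log2 fold change, ex14D minus control (point), with the 25th to 75th percentile (line), for each gene list with at least 3 genes tested, with the number called lower of the number tested on the right and the median of all genes tested as a dashed line. The Hox, Pax, LIM, Nkx, Iroquois, Dlx, bHLH, Hes and Frizzled lists lie between −0.44 and −1.48, and ribosomal, respiratory chain, olfactory receptor and vomeronasal receptor lists lie near 0.

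The size of the fall in the count over the whole gene followed how much of the gene lay under an EZH2 domain in control cells. With no domain on the gene, the median was 0.05 in 9656 genes, and 0.0518% were called lower. With under 5% of the gene covered the median was −0.02 (1891 genes, 4.76% lower), with 5% to 20% it was −0.27 (924 genes, 37.0% lower) and with 20% to 50% it was −0.62 (420 genes, 58.1% lower). With 50% to 80% the median was −0.88 (164 genes) and with 80% or more −1.03 (306 genes, 82.0% lower). All 306 genes of that last group had values under 0. The domains were called in the same control libraries that enter the fold change, so coverage and change share their control counts.

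Gene length moved with the fall as well. Among the 2306 genes with a control domain over the promoter, the median was −1.18 in 76 genes under 2 kb, −0.75 at 5 kb to 10 kb (238 genes) and −0.02 in 605 genes of 100 kb and over. The share called lower went from 73.7% to 11.2%. The level expected from gene length alone was then subtracted, taken as the median CPM per kb of the 9599 genes with no domain in any library, which was 0.921, 0.923, 0.943 and 0.958 in control replicates 1 and 2 and ex14D replicates 1 and 2. Of the EZH2 above that level, a median of 37.3% was kept in genes under 2 kb, 43.1% at 10 kb to 30 kb and 55.4% at 100 kb and over. By the share of the gene under a control domain, 60.8% was kept under 5%, 46.5% at 5% to 20% and 39.5% at 20% to 50%. It was 37.6% at 50% to 80% and 43.6% at 80% or more, so the share kept did not fall steadily with coverage. These shares leave out genes at or under the expected level in control, and this choice by control level alone pulls them below 100%, since the 9656 genes with no control domain, by the same sum, kept a median of 90.1%. That figure moved with length too. In genes without a control domain over the promoter the share kept was 56.7% under 2 kb, 81.8% at 10 kb to 30 kb and 97.0% at 100 kb and over.

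**Figure D3:**
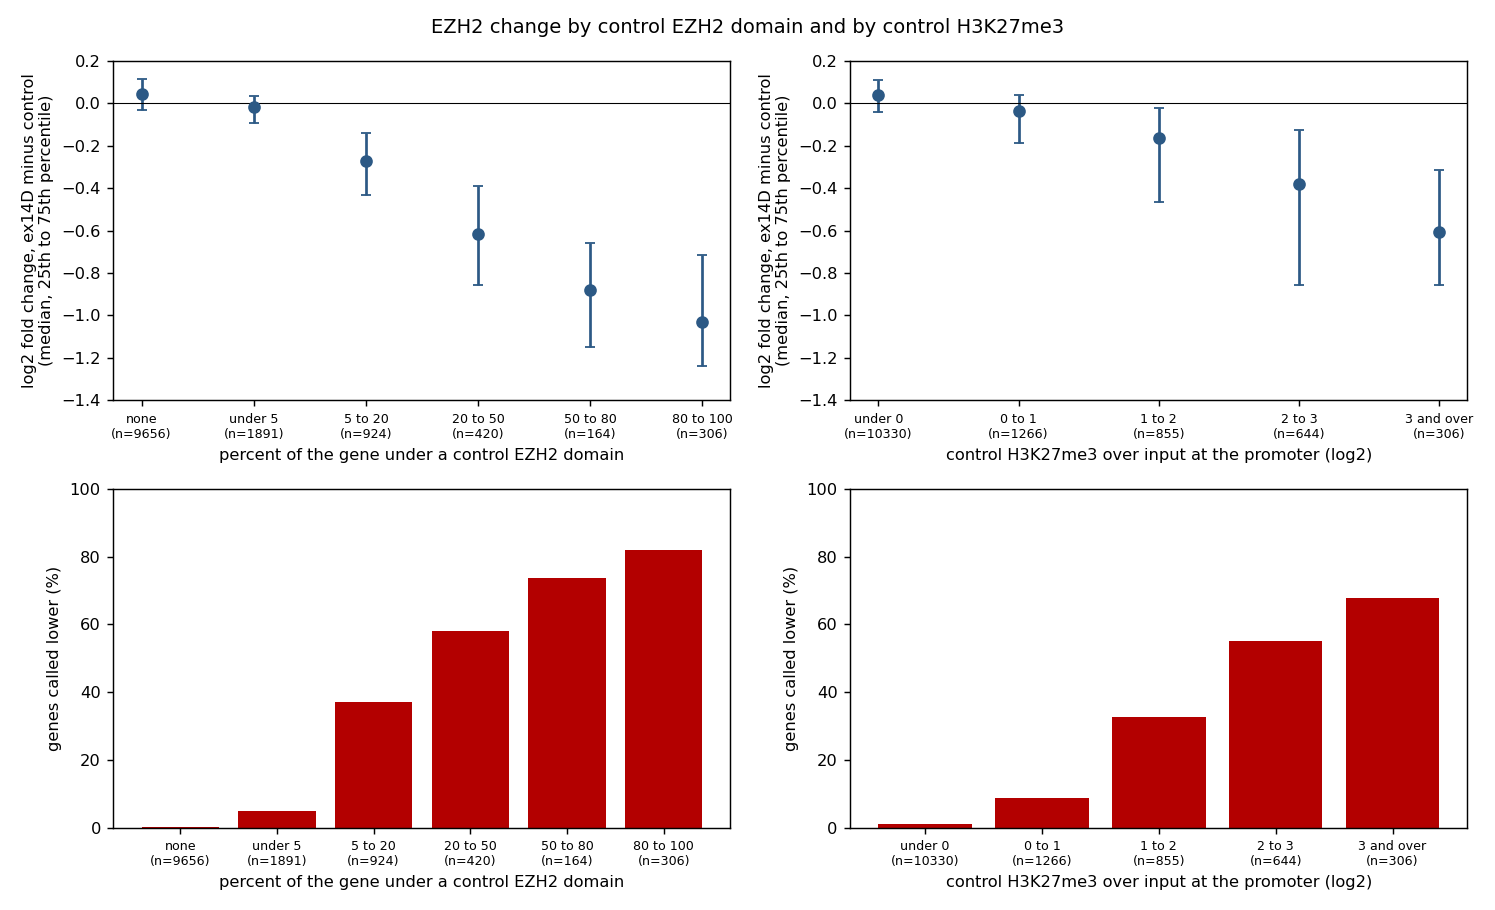
EZH2 log2 fold change (upper panels, median with 25th to 75th percentile) and percent of genes called lower (lower panels) for genes binned by the percent of the gene under a control EZH2 domain (left) and by control H3K27me3 over input at the promoter in log2 (right). The median falls from 0.05 with no domain to −1.03 at 80% to 100% coverage, and from 0.04 under a log2 ratio of 0 to −0.61 at 3 and over.

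H3K27me3 in control cells, measured in other libraries, split the genes in a similar way over all genes tested. At a log2 ratio over input under 0 the median EZH2 change was 0.04 and 1.01% of genes were called lower. At a ratio of 3 and over the median was −0.61 and 67.6% were called lower. The ratio ranks genes, and its 0 does not mark the input level. Within the 306 covered genes the order was another. The median EZH2 change was −1.01 in 39 genes with a log2 ratio under 1, −1.18 in 49 genes with a log2 ratio of 1 to 2 and −1.10 in 107 genes at 2 to 3, but −0.79 in 96 genes at 3 to 4 and −0.69 in 15 genes at 4 and over. The medians of genes of 3 and over and genes of 1 to 3 differed by 0.35, and the genes under 1 lay between them. Among covered genes of 2 kb to 10 kb the medians were −0.97 under 1 and then −1.17, −1.08, −0.77 and −0.69. CpG content of the promoter, as observed over expected CpG, moved little with the fall in these genes, with medians from −1.08 under 0.4 to −0.98 at 0.8 to 1.

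The H3K27me3 change at the same covered genes followed their EZH2 change. These values compare genes with each other and cannot give the absolute level of the mark, which the scaling of libraries removes. The 26 covered genes with EZH2 values under −1.5 and an H3K27me3 value had a median H3K27me3 log2 fold change of 0.00, and the 133 genes at −1.5 to −1 had one of 0.52. It was 1.20 in the 123 genes at −1 to −0.5 and 1.58 in the 18 genes at −0.5 and over. At Gas1 H3K27me3 had a log2 fold change of −1.31 and at Klf4 of −0.88, against 1.98 at Hoxa11 and 1.62 at Hoxa10. Positive values here are relative to other promoters. The study's ChIP-PCR found less H3K27me3 at Hoxa10 in ex14D cells, and its Western blot found less of the mark in total. The level of the H3K27me3 log2 fold changes depends on the scaling of the H3K27me3 libraries. With library sizes alone, counted as reads on genes, the medians of the same groups were −0.45, 0.07, 0.75 and 1.13. The order held, while the group with the largest EZH2 falls turned negative. Reads on genes were 5.65% and 5.98% of all reads in the control and 7.58% and 6.86% in the ex14D H3K27me3 libraries. Scaling to all reads was not run. The order also held with each H3K27me3 library left out in turn, where the group with the largest EZH2 falls had medians from −0.15 to 0.04. Control H3K27me3 over input also differed between the groups, with medians of 2.32, 2.35, 3.01 and 3.40, and its part in the order was not tested. Over the 1030 of 1056 lower genes with an H3K27me3 value, the median H3K27me3 change was 0.30, and it was −0.15 with library sizes alone.

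**Figure D4:**
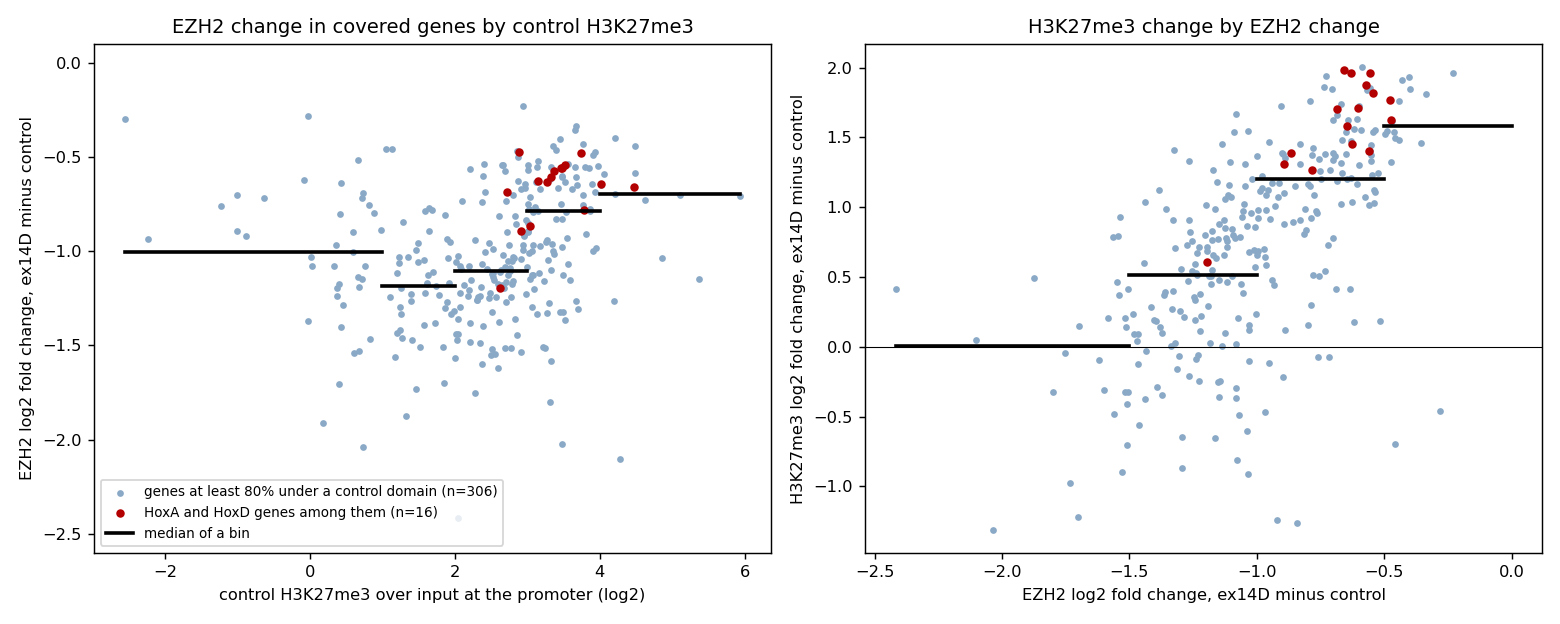
The 306 genes with at least 80% of their length under a control EZH2 domain, with HoxA and HoxD genes in red and black bars at the median of each bin. Left, EZH2 log2 fold change against control H3K27me3 over input at the promoter (log2), where medians are −1.01 under 1, −1.18 at 1 to 2 and −0.69 at 4 and over. Right, H3K27me3 log2 fold change against EZH2 log2 fold change, where medians go from 0.00 under −1.5 to 1.58 at −0.5 and over.

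Most promoters with a domain in both control libraries kept a called domain in both ex14D libraries. With control replicate 1 left out the share was under this, at 46.4% (1429 of 3082). Of the 2306 genes with a control domain over the promoter, 1425 (61.8%, exact 95% binomial interval 59.8% to 63.8%, counting error only) had a domain there in both ex14D libraries, 319 in 1 of them and 562 (24.4%) in neither. The genes that kept the domain had the larger falls, with 742 of 1425 called lower (median −0.36), against 80 of 562 among those without it (median −0.06). Those 562 genes had a lower EZH2 density in control, with a median of 1.08 CPM per kb against 1.59. Developmental transcription factor genes kept a domain in both ex14D libraries at 157 of 173 promoters, signalling genes at 73 of 92, neuronal genes at 77 of 100 and genes of cell cycle, adhesion, matrix and transport, most of which are solute carriers, at 51 of 87. All 16 HoxA and HoxD genes kept theirs. Tbr1, a cortical T-box factor, and Nhlh2 lost the domain call in both ex14D libraries, while the counts over Tbr1 fell from 165 and 164 CPM to 90.5 and 51.5 CPM (−1.22).

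The ex14D libraries differed from each other in the size of the fall. At the 1056 lower genes, ex14D replicate 1 held a median of 67.5% and replicate 2 a median of 54.4% of the control level, and replicate 2 was the lower of the pair at 93.8% of the genes. Control replicate 2 was under control replicate 1 at 51.8% of them. In the covered genes the 2 ex14D libraries held 60.5% and 39.6%. The domains called numbered 7322 and 7704 in control, 5067 in ex14D replicate 1 and 4122 in replicate 2. Without ex14D replicate 1, 1561 genes were called lower and 81 higher by edgeR's test, and without ex14D replicate 2, 1188 lower and 44 higher.

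**Figure D5:**
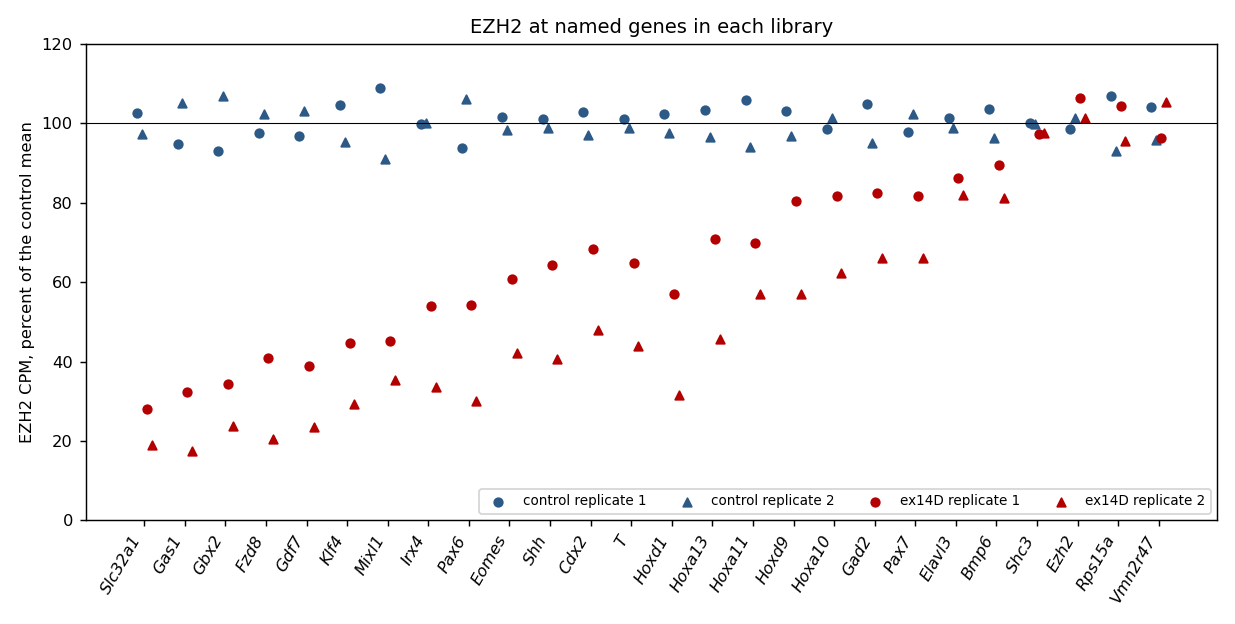
EZH2 CPM in each of the 4 libraries as a percent of the control mean at named genes, with control libraries in blue, ex14D libraries in red, circles for replicate 1 and triangles for replicate 2. The ex14D libraries lie lowest at Slc32a1 and Gas1, higher at Hoxa10 and Hoxd9 and beside the control libraries at Ezh2, Rps15a and Vmn2r47, and ex14D replicate 2 lies under replicate 1 at the genes drawn that fell.

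The rises were few. Als2cr12 had 31.7 and 33.2 CPM in control and 39.1 and 39.0 CPM in ex14D, a log2 fold change of 0.27 (adjusted p = 0.0446 in edgeR's test). Cmah, an enzyme gene of sialic acid metabolism, had 125 and 130 CPM against 147 and 144 CPM (0.19), and Cntn5, a neuronal adhesion gene of 1271 kb, had 982 and 978 CPM against 1027 and 1054 CPM (0.09). The high-count features G530011O06Rik, BC002163 and Gm5801 rose by at most 0.04 in log2, and all 3 turned to values under 0 when TMM used only the domain-free genes. The olfactory receptor gene Olfr1040 and Gm5801 are named because they complete the 7 called, and Olfr1040 had 4 and 4 reads in control against 17 and 15 reads in ex14D. The 5 higher genes that could be placed on the genome had no EZH2 domain in any library.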

How the data were processed

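EZH2 ChIP-seq libraries of control and ex14D-Ezh2 E14 cells, 2 of each, were analysed with the H3K27me3 and input libraries of the same cells. The authors used Bowtie with mm10 and htseq-count, and each deposited count is a whole number of reads on a gene, not normalized. The methods describe windows of 1 kb at promoters, but EZH2 counts followed gene length, and 21.2% to 21.9% of counted reads fell on more than 1 feature and went to none. The authors called hiddenDomains domains in each library, and only their positions were used, without the posterior cutoff named in the methods. Rows that name no gene stayed out of library sizes.

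EZH2 and H3K27me3 counts were fitted separately with edgeR 4.0.16 in R 4.3.3 (TMM, filterByExpr, quasi-likelihood F test, Benjamini-Hochberg, threshold 0.05). The procedure was tested on simulated data. Standard errors were derived from the F statistic and are approximate. H3K27me3 over input is log2((CPM + 1)/(input CPM + 1)), with CPM scaled to reads on genes. Those were 5.65% and 5.98% of reads in the control H3K27me3 libraries and 1.90% in control input, so a ratio of 0 is not the input level. DESeq2 1.42.0 was an alternative. Positions came from RefSeq on GRCm38. Python 3.11.15, pandas 2.3.3 and pysam 0.24.0 were used outside R.

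Genes were named if among the 12 largest falls or 5 largest rises called, at an average log2 CPM of 3 or more and with the same direction in all 4 pairings of libraries, or, in each of 63 lists, among the 3 largest called falls or with the highest level, or if the study named them. Not all of these are printed. The comparison, lists and bins were chosen with earlier results of these data known.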

Additional observations from a re-analysis of the deposited data

How the results depend on the processing

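The number of lower genes was between 752 (DESeq2) and 1190 (TMM on domain-free genes) under other scalings, tests and filters, and between 0 and 1561 when 1 library was left out, where the lone library is assumed to vary like the other genotype. Higher genes numbered 2 with relative log expression factors, 47 with library sizes, 1 with TMM on domain-free genes and 0 with DESeq2 (where 1299 genes had no adjusted p, and an unadjusted p under 0.05 gave 9), and 0 to 81 with 1 library left out. Replicate numbers did not pair the libraries (correlation of same-numbered deviations −0.0184), and with the replicate block 852 genes were lower, 823 of them shared with the 1056, and 3 higher. The median of genes with a control promoter domain was −0.26 with TMM on domain-free genes and −0.27 to −0.18 with 1 library left out, and that of covered genes −1.36 to −0.72. The difference by H3K27me3 in covered genes, whose alternatives were added after seeing the data, was 0.31 to 0.42. The share that kept a domain was 75.6% for at least 1 ex14D library and 46.4% to 71.5% with 1 library left out. The median H3K27me3 change of lower genes reversed to −0.15 with library sizes alone, counted as reads on genes and not as all reads. With TMM on domain-free genes G530011O06Rik, BC002163 and Gm5801 reversed to −0.00969, −0.0196 and −0.0298, and Gm5801 was at −0.00209 to 0.0171 with 1 library left out, negative without ex14D replicate 1. The cause was not tested. Low counts limit genes with few reads, such as Olfr1040.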
